A study of Mus musculus with 28 samples.

Results

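The 9 genes described here, which encode factors that shorten the life of messenger RNA, were followed through 6 sets of mouse macrophage libraries. They are the ZFP36 family (Zfp36, Zfp36l1 and Zfp36l2), the regnases (Zc3h12a and Zc3h12c), the roquins (Rc3h1 and Rc3h2) and the anti-proliferative BTG genes (Btg1 and Btg2). Members were found by symbol in every deposited table, which gave 9 of 33411 symbols (36806 gene rows). ZFP36 proteins bind AU-rich elements of short-lived transcripts and recruit the CCR4-NOT deadenylase, which removes the poly(A) tail. Regnases are endonucleases, and roquins bind stem-loops that partly overlap with those cut by regnase-1, the product of Zc3h12a. BTG proteins bind the CCR4-NOT deadenylase subunits and, through them, speed up removal of the tail. In macrophages these factors limit the amount and duration of cytokine mRNA after a bacterial stimulus, and several of them are themselves induced by it.

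The cells were macrophages grown from bone marrow of FVB/Hsd mice, taken at day 7 of culture and transduced with a retrovirus. The Wdr82 sets compared hairpin sh1137 with the empty LMP vector, except that the DRB set compared it with a scrambled hairpin. The Set1a+Set1b and Pnuts sets compared hairpins against those genes with a scrambled hairpin. All cells had thus been transduced, and no library came from cells without a vector. Wdr82 was targeted by 1 hairpin, and against the empty vector its effect and that of carrying any hairpin cannot be told apart. Cells were untreated or received LPS, a component of the bacterial cell wall, at 10 ng/ml. In the unstranded Wdr82 set the times were 45 min, 2 h and 4 h, in the stranded Wdr82 set 1 h, in the polyA Wdr82 set 4 h, and in the Set1a+Set1b and Pnuts sets 45 min. The DRB set received 45 min of LPS with or without DRB, a compound that blocks elongation by RNA polymerase II. RNA was polyA-selected in 1 set (an unstranded library type), and in the other 5 it was isolated through 4-thiouridine (4sU) taken up over 45 min, which enriches RNA made in that window. Each of the 28 libraries was the only one of its condition.

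Values are FPKM, the fragments per kilobase of transcript scaled to each library, so levels can be compared between genes of different length. Ratios are log2((FPKM + 1)/(FPKM + 1)) within a set and understate the change of genes with low FPKM. Read depth is unknown, and relative depth within a set differed by 1.59-fold (Set1a+Set1b) to 3.34-fold (polyA). Between 11450 and 13517 genes reached 1 FPKM per library. All 9 members had status OK and at least 1 FPKM in all 28 libraries. The macrophage markers Cd68 and Csf1r lay at 186 to 891 and 134 to 1166 FPKM. The summed FPKM of 9 macrophage markers was 1943 to 12338. It was 3.91 to 88.3 for 10 neutrophil markers, 0.599 to 20.8 for 9 lymphocyte markers (Cd79b up to 16.3, Cd3e at most 0.0172), 0.574 to 39.8 for 7 stroma markers, 1.11 to 24.4 for 7 dendritic cell markers and 0 to 0.896 for 7 erythroid and mast cell markers. Wdr82 was lower with sh1137 in all 10 Wdr82 pairs (log2 ratios from -2.23 to -0.72). Ppp1r10, which encodes PNUTS, was not lower in the libraries labelled Pnuts hairpin (log2 ratios 0.68 and 0.70), and Setd1a and Setd1b had log2 ratios of -0.58 to 0.06 with the Set1a+Set1b hairpins. These hairpin libraries are therefore called by their labels.

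The loci, in mm9 as the tables give them, are chromosome 7, 29161802 to 29164274 for Zfp36 (ENSMUSG00000044786), chromosome 12, 81208746 to 81214000 for Zfp36l1 (ENSMUSG00000021127) and chromosome 17, 84583270 to 84587287 for Zfp36l2 (ENSMUSG00000045817). Zc3h12a (ENSMUSG00000042677) lies on chromosome 4, 124795666 to 124805084, and Zc3h12c (ENSMUSG00000035164) on chromosome 9, 51920089 to 51976216. Rc3h1 (ENSMUSG00000040423) spans chromosome 1, 162836548 to 162905109, and Rc3h2 (ENSMUSG00000075376) chromosome 2, 37225588 to 37278423. Btg1 (ENSMUSG00000036478) lies on chromosome 10, 96079634 to 96085447, and Btg2 (ENSMUSG00000020423) on chromosome 1, 135971746 to 135975697. The Zfp36l1 locus overlaps that of Gm17591 and the Rc3h2 locus that of Snord90, so reads of these pairs may not be separated in the 4sU and polyA libraries made without strand. Below, the unstranded set means that of 4sU RNA.

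Sequence just upstream of the annotated start was available from RefSeq (GRCm38.p6) for 8 of the 9 members, and 4 of the 5 that hold a match to a searched motif are shown, among them the genes with the highest early LPS ratios described below (Btg2 and Zfp36). Each is written 5′ to 3′ on the gene's strand and ends at the base before the start site. The windows are 250 bases long, and for Btg1 only the 100 bases next to the start are shown. Capitals mark a match to a searched motif on either strand. The motifs were the CArG box bound by serum response factor (searched by name), the cyclic AMP response element TGACGTCA, the AP-1 site TGACTCA, the TATA box TATAAA and the NF-kappaB consensus (by name).
Zfp36, chr7:28379229-28379478, minus strand: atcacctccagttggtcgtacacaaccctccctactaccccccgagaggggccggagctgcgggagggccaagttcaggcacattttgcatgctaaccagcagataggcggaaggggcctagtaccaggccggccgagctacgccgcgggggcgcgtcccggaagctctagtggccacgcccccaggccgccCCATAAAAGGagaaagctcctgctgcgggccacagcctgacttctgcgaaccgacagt
Btg2, chr1:134079156-134079405, minus strand: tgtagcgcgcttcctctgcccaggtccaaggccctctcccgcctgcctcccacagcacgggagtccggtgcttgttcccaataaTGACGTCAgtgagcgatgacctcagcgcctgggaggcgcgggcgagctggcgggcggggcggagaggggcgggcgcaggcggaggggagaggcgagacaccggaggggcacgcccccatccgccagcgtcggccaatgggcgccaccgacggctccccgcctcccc
Btg1, chr10:96616901-96617000, plus strand: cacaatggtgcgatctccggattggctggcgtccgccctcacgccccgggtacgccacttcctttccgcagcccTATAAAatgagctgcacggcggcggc
Rc3h1, chr1:160906161-160906410, plus strand: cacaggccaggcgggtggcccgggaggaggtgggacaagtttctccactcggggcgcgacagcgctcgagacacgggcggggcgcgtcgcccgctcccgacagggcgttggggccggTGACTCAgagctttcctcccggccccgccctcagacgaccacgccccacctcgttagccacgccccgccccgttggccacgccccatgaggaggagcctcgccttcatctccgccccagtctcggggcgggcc
The Zfp36 stretch holds a CArG box 58 bases before the start, a motif found in 1.47% of 32851 windows of this length (250 bases). Btg2 holds the cyclic AMP response element 166 bases before its start (1.55% of windows), and Rc3h1 the AP-1 site 133 bases before its start (4.46%). Btg1 holds TATAAA 26 bases before the start, and Zfp36l1, not shown, 29 bases before it (12.4%). The NF-kappaB consensus, which 3.90% of windows hold, matched in no window of the 8 members. The windows of Zc3h12a, Zc3h12c and Rc3h2 held no match to any of the motifs. A match here describes the letters of the window and was not tied to binding.

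In untreated control cells, new RNA of Zfp36l2 and Zfp36 was the most abundant of the 9. Zfp36l2 had 133, 196, 123 and 181 FPKM in the untreated 4sU controls of the unstranded, stranded, Set1a+Set1b and Pnuts sets. Zfp36 had 58.3, 106, 155 and 132. These genes took ranks 1 and 2 in each of the 4 libraries, with Zfp36 first only in the Set1a+Set1b set. Zfp36l1 (28.8 to 53.7) and Rc3h1 (30.0 to 48.1) shared ranks 3 and 4 in each. The order among Zc3h12a, Zc3h12c, Rc3h2 and Btg1 changed from set to set, and Btg2 was eighth or last with 8.96 to 21.6 FPKM. In polyA RNA of untreated control cells the order differed, from Zfp36l2 (90.4) over Btg1 (39.6), Zfp36l1 (33.2) and Zfp36 (27.2) down to Zc3h12c (5.06).

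Within 45 min of LPS, 6 of the 9 genes rose and Zfp36l2 fell in new RNA of control cells. The fit took 1 ratio from each of 3 sets (unstranded with empty vector, Set1a+Set1b and Pnuts with scrambled hairpin), used limma with Benjamini-Hochberg adjustment over 12092 genes, and called 26.4% of all genes at an adjusted p under 0.05. The members' median log2 ratio was 1.53, beside 0.07 over all genes tested. The labels do not say whether the sets are separate cultures, so the error is the spread between sets. In the single pairs, 7, 6 and 6 members were at least 2-fold different at 45 min in the unstranded, Set1a+Set1b and Pnuts controls, where 9.51%, 8.09% and 8.12% of all genes were.

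Zfp36, which encodes tristetraprolin, rose from 58.3 to 1295 FPKM in the unstranded control, from 155 to 2004 in the Set1a+Set1b control and from 132 to 1780.2 in the Pnuts control. Every treated library stood above every untreated one. The mean log2 ratio was 3.96 (SE 0.16, n = 3, limma, adjusted p = 0.000257), a 15.5-fold change. In the unstranded control the level was 249 FPKM at 2 h and 491 at 4 h, so the 45 min value was the highest and that at 2 h the lowest after LPS. The hairpin cells of that set had the same order of times, at 43.5 FPKM untreated and 1145, 276 and 620 after LPS. In the stranded control, Zfp36 was 106 FPKM untreated and 539 at 1 h (log2 ratio 2.34).

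Zfp36l1 and Zfp36l2, the paralogs of Zfp36, went in opposite directions at 45 min. Zfp36l1 rose from 28.8 to 65.1, from 53.7 to 98.7 and from 48.6 to 85.7 FPKM in the 3 controls (mean log2 ratio 0.94, SE 0.094, n = 3, limma, adjusted p = 0.00328). In the unstranded control it was then below the untreated level, at 17.6 FPKM at 2 h and 11.7 at 4 h. Zfp36l2 fell from 133 to 45.9, from 123 to 55.5 and from 181 to 86.2 FPKM (mean log2 ratio -1.24, SE 0.11, limma, adjusted p = 0.00207). It was lower at each later time, at 19.4 FPKM at 2 h and 9.07 at 4 h. Hence Zfp36l2, with the highest FPKM of the 9 genes in the untreated unstranded control, had the lowest there at 4 h. After 1 h in the stranded control the difference was smaller, from 196 to 161 FPKM (log2 ratio -0.28).

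Both regnase genes rose. Zc3h12a, which encodes regnase-1, was 20.3 and 66.3 FPKM in the unstranded control before and after 45 min of LPS, 26.6 and 90.8 in the Set1a+Set1b control, and 28.2 and 65.9 in the Pnuts control. The mean log2 ratio was 1.53 (SE 0.12, n = 3, limma, adjusted p = 0.0017). Its level in the unstranded control was 102 FPKM at 2 h and 105 at 4 h. Zc3h12c, which encodes regnase-3, was 15.7 and 119.8 FPKM, 24.9 and 164, and 16.3 and 84.9 in the same pairs, with a mean log2 ratio of 2.61 (SE 0.12, limma, adjusted p = 0.000288). It was higher at each later time, at 179 FPKM at 2 h and 234 at 4 h, a log2 ratio of 3.82 to the untreated control. After 1 h in the stranded control, Zc3h12c had a log2 ratio of 2.40 and Zc3h12a one of 0.85.

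The roquin genes did not pass the test at 45 min. Rc3h1, which encodes roquin-1, was 30.0 and 34.3, 39.7 and 45.9, and 35.5 and 37.3 FPKM (mean log2 ratio 0.15, SE 0.071, n = 3, limma, adjusted p = 0.165). Rc3h2, which encodes roquin-2, was 16.8 and 16.9, 20.8 and 21.2, and 16.7 and 15.5 (mean log2 ratio -0.02, SE 0.076, adjusted p = 0.856). Their later values in the unstranded control were above both early ones. Rc3h1 reached 58.4 FPKM at 2 h and 54.9 at 4 h, and Rc3h2 34.6 and 43.8. The Rc3h2 log2 ratios were 1.00 and 1.33, and those of Rc3h1 0.94 and 0.85. In hairpin cells Rc3h1 and Rc3h2 were 67.2 and 33.9 FPKM at 2 h and 57.0 and 47.5 at 4 h.

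Btg2 had the highest mean log2 ratio of the 9 genes at 45 min. It was 8.96 and 263 FPKM in the unstranded control, 20.1 and 379.6 in the Set1a+Set1b control and 12.8 and 312 in the Pnuts control. The mean log2 ratio was 4.47 (SE 0.12, n = 3, limma, adjusted p = 9.67e-05), a 22.2-fold change. Its level was 29.9 FPKM at 2 h and 51.0 at 4 h in the unstranded control, still above the untreated value. Btg1 rose from 14.6 to 64.6, from 37.7 to 125 and from 26.1 to 113 FPKM (mean log2 ratio 1.95, SE 0.098, limma, adjusted p = 0.000392). Unlike Btg2, it had its highest value at 4 h, with 50.1 FPKM at 2 h and 95.2 at 4 h.

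**Figure D1:**
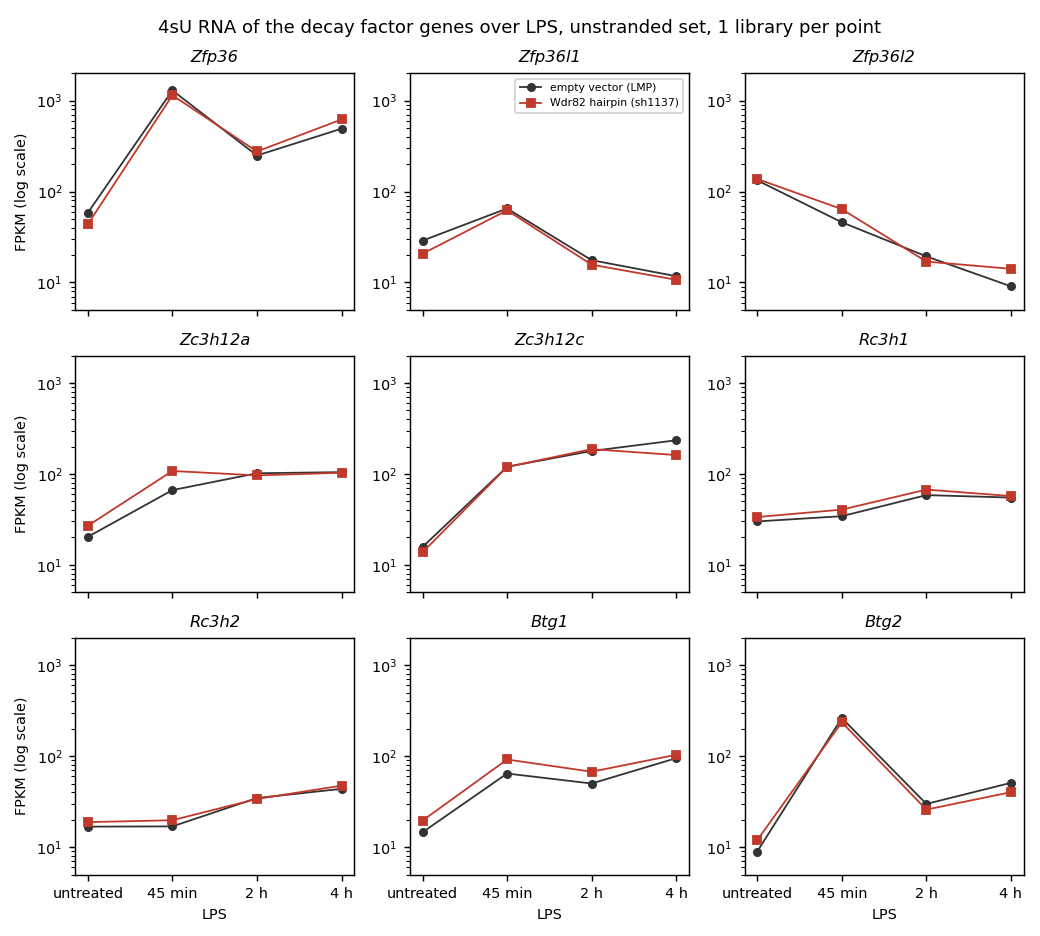
FPKM on a log axis of each of the 9 genes in 4sU RNA of the unstranded set, untreated and after 45 min, 2 h and 4 h of LPS, for the empty vector (dark circles) and the Wdr82 hairpin (red squares), 1 library per point. Zfp36 and Btg2 have their highest point at 45 min (1295 and 263 FPKM in the control), Zc3h12c at 4 h (234), and Zfp36l2 is lower at each time (133 to 9.07).

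**Figure D2:**
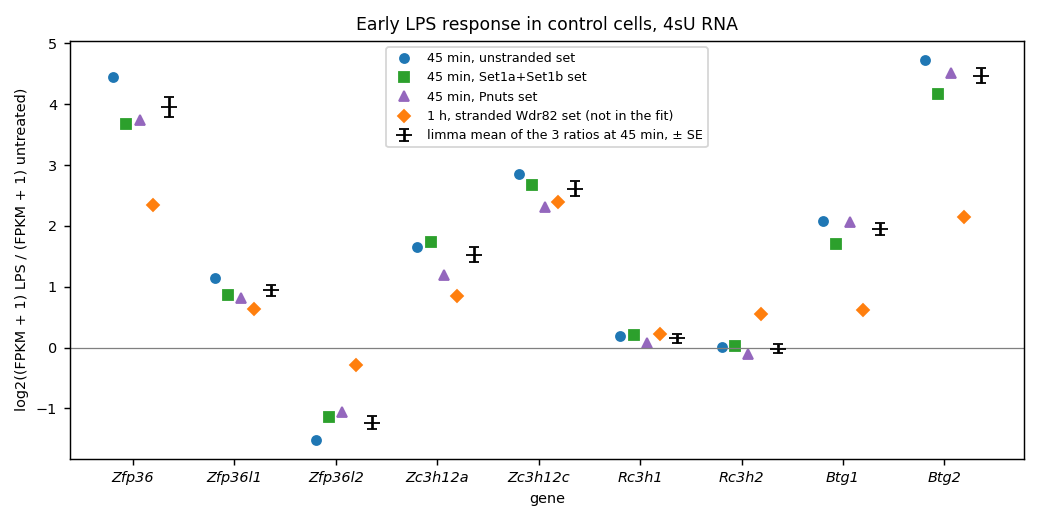
Log2 ratio of LPS-treated to untreated control cells (y axis) for each gene (x axis) in the 3 sets at 45 min and in the stranded Wdr82 set at 1 h, with the limma mean of the 3 ratios at 45 min and its SE. The 3 ratios of Zfp36 lie between 3.68 and 4.45 and those of Btg2 between 4.17 and 4.73, and the 1 h points of both are lower (2.34 and 2.15).

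At later times the single pairs have no test. Of the 9 members, 7 were at least 2-fold different at 2 h (17.9% of all genes), 8 at 4 h (30.7%), 3 at 1 h in the stranded set (6.78%) and 7 at 4 h in polyA RNA (27.1%). The comparisons of the unstranded set share 1 untreated library. The deposited confidence bounds of the pair were apart for no member in the unstranded set at 45 min, 2 h or 4 h, where they were apart for 0.326%, 1.05% and 2.32% of all genes. They were apart for 3 members (Zfp36, Zc3h12c and Btg2) in the stranded set at 1 h (1.18%), 4 in the Set1a+Set1b set (2.59%), 3 in the Pnuts set (1.63%) and 2 in polyA RNA (4.22%).

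At 4 h, the polyA ratio of control cells lay within 0.69 of the 4sU ratio for 6 members on the log2 scale, and more than 2 below it for Btg1 and Btg2. In polyA RNA of control cells, Zfp36 was 27.2 and 245 FPKM before and after 4 h of LPS, a log2 ratio of 3.13 beside 3.05 in 4sU RNA. Zc3h12a was 11.7 and 78.4 (2.64 beside 2.31 in 4sU RNA) and Zc3h12c 5.06 and 52.0 (3.13 beside 3.82). Rc3h1 was 11.2 and 23.8 (1.03 beside 0.85), Rc3h2 5.61 and 12.4 (1.02 beside 1.33) and Zfp36l1 33.2 and 9.89 (-1.65 beside -1.23). Zfp36l2 went from 90.4 to 2.32 FPKM, a log2 ratio of -4.78 in polyA RNA beside -3.73 in 4sU RNA. Btg1 was 39.6 and 39.7 FPKM in polyA RNA (0.01), while its 4sU ratio was 2.63. Btg2 was 25.0 and 32.7 (0.38), while its 4sU ratio was 2.38. The difference between the polyA and the 4sU ratio, -2.62 for Btg1 and -2.01 for Btg2, lay at percentiles 0.665 and 1.41 of 11733 genes measured in both sets, whose median difference was -0.02. In hairpin cells the differences were -1.79 and -1.40 (percentiles 1.46 and 2.72 of 12041 genes). The sets are separate libraries with 1 library per condition, and this difference has no test.

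**Figure D3:**
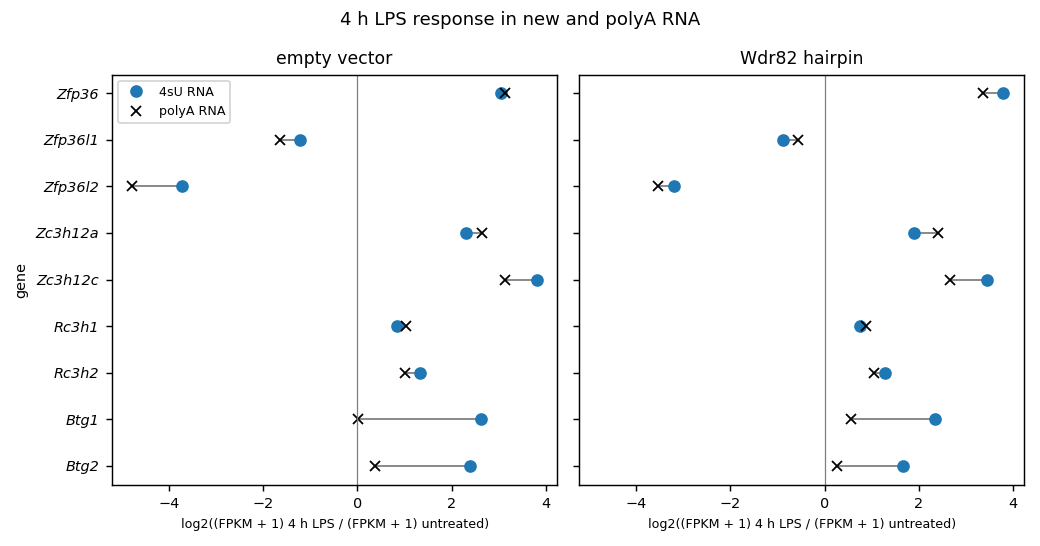
Log2 ratio of 4 h of LPS to untreated cells (x axis) in 4sU RNA (blue circles, unstranded set) and polyA RNA (crosses) for each gene (y axis), empty vector on the left and Wdr82 hairpin on the right, 1 pair of libraries per point. The grey line joins the 2 kinds of RNA and is longest for Btg1 (2.63 and 0.01 in control cells) and Btg2 (2.38 and 0.38).

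With DRB during 45 min of LPS, new RNA of all 9 genes was lower in both vectors, and that of Zfp36, Btg2 and Zc3h12a by the most. Zfp36 was 877 FPKM without and 42.6 with DRB in control cells (log2 ratio -4.33), and 797 and 35.5 in hairpin cells (-4.45). Btg2 was 86.1 and 4.30 in control cells (-4.04) and 97.1 and 3.22 in hairpin cells (-4.54). Zc3h12a was 67.4 and 4.73 in control cells (-3.58) and 77.0 and 3.65 in hairpin cells (-4.07). For these 3 genes the deposited bounds were apart in both vectors. Zc3h12c had log2 ratios of -2.56 and -2.97, Zfp36l1 of -1.91 and -1.26 and Btg1 of -1.53 and -1.82, in control and hairpin cells. Zfp36l2 was 134 and 40.7 FPKM in control cells (-1.70) and 136 and 33.3 in hairpin cells. The roquin genes had the smallest differences, from 43.6 to 19.7 FPKM for Rc3h1 (-1.11) and from 22.8 to 13.4 for Rc3h2 (-0.73) in control cells. At least 2-fold lower were 8 members in control cells, where 15.7% of all genes were 2-fold lower and 32% 2-fold different either way, and 7 in hairpin cells (15.4% and 28.9%). Bounds were apart for 3 members in control cells (3.61% of all genes) and for 4, with Zc3h12c added, in hairpin cells (2.92%). FPKM is scaled to each library and does not show a loss that all genes share, and the median gene lay at 0.16 and 0.18.

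**Figure D4:**
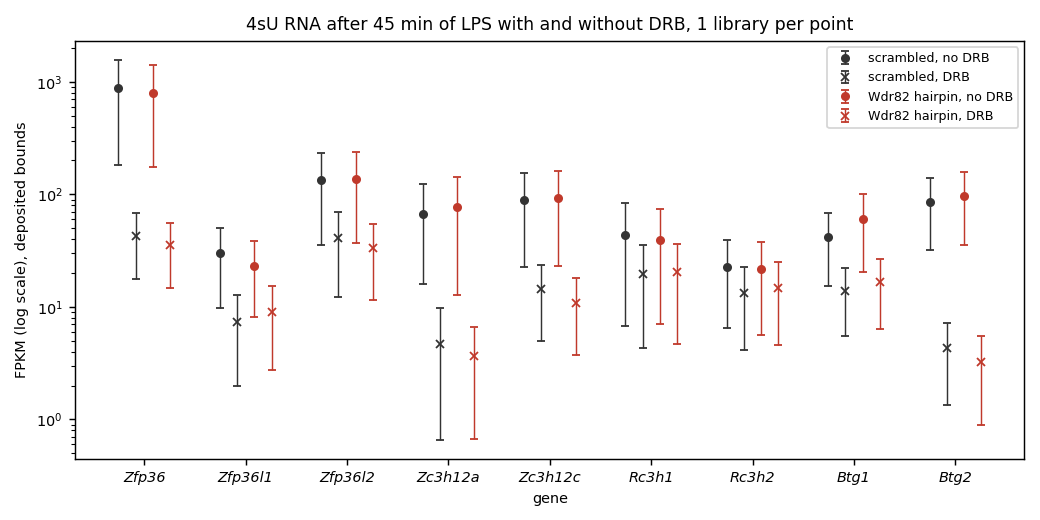
FPKM on a log axis after 45 min of LPS without DRB (circles) and with DRB (crosses), for the scrambled control (dark) and the Wdr82 hairpin (red), 1 library per point, with error bars that show the deposited confidence bounds. For Zfp36, Zc3h12a and Btg2 the bars with and without DRB do not meet in either vector (Zfp36 877 and 42.6 FPKM in the control).

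With the Wdr82 hairpin, no member was 2-fold different from its control in any of the 8 4sU pairs (0 of 72 values). The same threshold was passed by 6.7%, 10.7%, 9.46% and 9.7% of all genes in the 4 pairs of the unstranded set (in the order of time), 9.86% and 11.6% in the stranded set (untreated and 1 h), and 5.26% and 8.7% in the DRB set (without and with DRB). A limma fit over the 4 times of the unstranded set, which treats the times as repeats, called 1 member, Btg1, while 21.8% of 12241 genes were called. Btg1 was 14.6 and 19.6 FPKM in control and hairpin cells untreated, 64.6 and 92.1 at 45 min, 50.1 and 67.6 at 2 h, and 95.2 and 104 at 4 h. Its mean log2 ratio was 0.36 (SE 0.087, higher in 4 of 4 pairs, limma, adjusted p = 0.0315). Without the untreated, the 45 min or the 2 h pair the adjusted p was 0.11, 0.113 or 0.103, and without the 4 h pair it was 0.0259. The other 8 had mean log2 ratios from -0.20 (Zfp36l1, adjusted p = 0.166) to 0.24 (Zc3h12a, adjusted p = 0.256).

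Btg1 was above its control in all 12 4sU pairs of any hairpin, with log2 ratios of 0.12 to 1.16. The values were 33.7 and 45.2 FPKM in untreated cells of the stranded set, 37.7 and 54.4 in the Set1a+Set1b set and 26.1 and 45.8 in the Pnuts set. After 45 min of LPS they were 125 and 199.5 in the Set1a+Set1b set and 113 and 253 in the libraries labelled Pnuts hairpin. In polyA RNA with the Wdr82 hairpin, Btg1 was not higher, at 39.6 and 26.6 FPKM untreated (-0.56) and 39.7 and 39.5 at 4 h (-0.01). Zfp36 was below its control in all 5 untreated pairs, at 58.3 and 43.5, 106 and 77.0, 155 and 121, and 132 and 98.0 FPKM in the 4 4sU sets and 27.2 and 18.8 in polyA RNA. After LPS it was above the control in some pairs, such as 1780.2 and 2555 at 45 min in the Pnuts set, and below it in others, such as 539 and 326 at 1 h in the stranded set. The share of all genes that lie on 1 side in all 12 4sU pairs, or in all 5 untreated pairs, was not counted. Of the 12 pairs, 8 used the same Wdr82 hairpin. Because these patterns of Btg1 and Zfp36 were seen first, a limma fit added afterwards over the 4 untreated 4sU pairs is a description only. In it, the mean log2 ratio was 0.53 for Btg1 (SE 0.097, higher in 4 of 4 pairs, adjusted p = 0.0294) and -0.41 for Zfp36 (SE 0.078, lower in 4 of 4, adjusted p = 0.0314), and 9.09% of 11959 genes were called. Leaving out any 1 of the 4 sets raised the adjusted p to between 0.0586 and 0.124 for Btg1 and between 0.0622 and 0.144 for Zfp36.

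The only 2-fold hairpin differences of members were in 2 pairs. Zfp36l1 was 33.2 FPKM in control and 12.6 in Wdr82 hairpin cells in untreated polyA RNA (log2 ratio -1.33), where 5.39% of all genes were 2-fold different. This library type keeps no strand, so reads of the overlapping Gm17591 may be included. Its 4sU value in untreated cells of the stranded set was 44.5 and 44.3 FPKM, and that of the unstranded set 28.8 and 20.7. Btg1 at 45 min in the Pnuts set (1.16) was the other, where 10.2% of all genes were. Bounds were not apart for either. No member was 2-fold different at 4 h in polyA RNA (6.36% of all genes), in the Set1a+Set1b set (4.24% untreated and 5.94% at 45 min) or in untreated cells of the Pnuts set (5.83%). In the polyA hairpin pairs, 8 members in untreated cells and 8 at 4 h lay below 0, and 7 and 7 below the median of all genes (-0.05 and -0.10), with Btg2 at 25.0 and 14.8, and at 32.7 and 18.1 FPKM. Macrophage markers also differed with the hairpin. In the limma fit over the unstranded set 2 of 9 were higher (Mrc1, mean log2 ratio 1.14, adjusted p = 0.00204, and Mertk, 0.40, adjusted p = 0.0158) and 4 lower (Cd68, -0.65, Csf1r, -0.46, Fcgr1, -1.20, and Cd14, -1.04, adjusted p = 0.00468 to 0.0103), beside 21.8% of all genes called. Of the 7 stroma markers only Pecam1 was tested, and it was higher (2.20, adjusted p = 0.00167). That 1 gene cannot show whether stromal cells differed. None of the 6 neutrophil markers tested was called. The part of these marker differences in the members' values was not tested. In these bulk libraries, fewer cells of a type and less RNA per cell cannot be told apart.

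**Figure D5:**
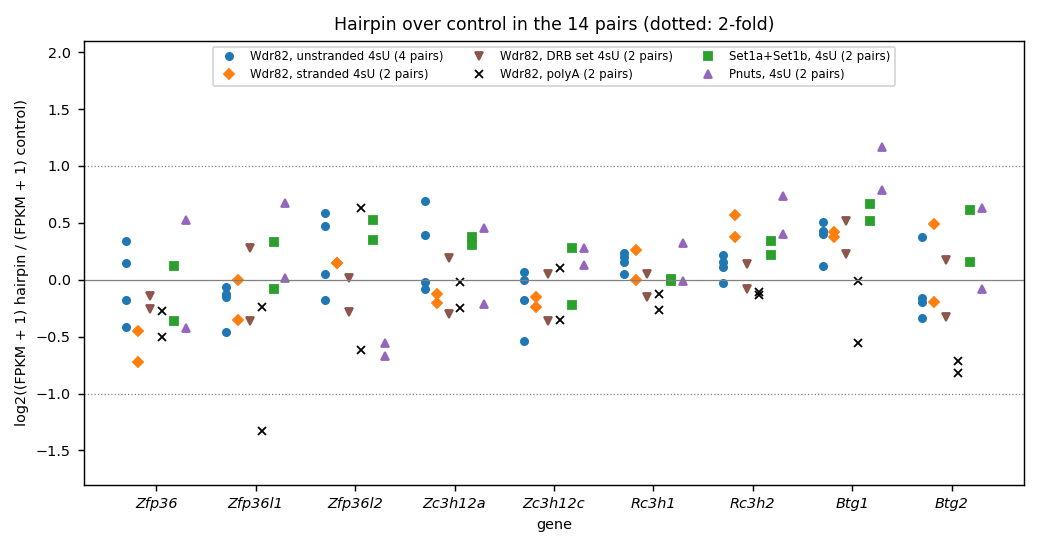
Log2 ratio of hairpin to control cells (y axis) for each gene (x axis) in the 14 pairs, with a symbol for each set and dotted lines at 2-fold. All 12 4sU points of Btg1 lie above 0 (0.12 to 1.16), both polyA points (crosses) lie below it, and the polyA point of Zfp36l1 at -1.33 is the lowest of all.

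LPS ratios were then compared between vectors, as the hairpin minus the control ratio of each pair of times. Such a difference equals the hairpin to control ratio after LPS minus that of untreated cells, so it reuses the untreated hairpin pairs. For Btg2 this difference was -0.54, -0.58 and -0.71 at 45 min, 2 h and 4 h in the unstranded set, -0.68 at 1 h in the stranded set and -0.45 in the Set1a+Set1b set. It was 0.72 in the Pnuts set and -0.11 in polyA RNA. For Zfp36 it was 0.24, 0.56 and 0.75 in the unstranded set, 0.48 in the Set1a+Set1b set and 0.95 in the Pnuts set, but -0.27 in the stranded set. At 45 min in the unstranded set, Zfp36 was lower in hairpin cells both untreated (log2 ratio -0.41) and after LPS (-0.18). The median difference over all genes lay between -0.06 and 0.06. The 3 times of the unstranded set share the untreated libraries, and no test was made of these differences.

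Partners of the members were read from the same limma fit over 45 min of LPS, in which 26.4% of all genes were called. Of 8 kinases, phosphatases and 14-3-3 proteins that act on ZFP36, 6 rose and none fell (median log2 ratio 0.39, beside 0.07 over all genes). They included Dusp1, the phosphatase that switches off p38 (mean log2 ratio 4.63, limma, adjusted p = 0.000191), and Mapkapk2, the kinase that phosphorylates ZFP36 (1.10, adjusted p = 0.00587). Dusp1 was 21.2 FPKM untreated and 761 at 45 min in the unstranded control. The other kinases, phosphatases and 14-3-3 proteins called had mean log2 ratios of 0.30 (Ywhaz) to 0.55 (Ppp2ca). Of 9 macrophage markers, 8 also rose in this fit and none fell (median 0.37), so such a rise was not particular to these partners. Of 7 regulators of regnase-1, 4 rose and none fell (median 0.32). Arid5a, whose protein shields mRNA from regnase-1, rose by 1.96 on the log2 scale (adjusted p = 0.000348), and Malt1, the protease that cleaves regnase-1, by 1.05 (adjusted p = 0.00168). Of the genes of the same families outside the 9, 4 were tested and 1, Tob2, fell (-0.56, adjusted p = 0.0153).

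Among decay enzymes and other RNA-binding proteins, the share called was 3 of 13, 1 of 12 and 3 of 8, beside that 26.4% of all genes. Of 13 CCR4-NOT and PAN deadenylase genes, 2 rose (Cnot7, 0.50, and Pan3, 0.32) and 1 fell (Cnot8, -0.52), with a list median of 0.09 in the limma fit. Of 12 genes of decapping and 5′ decay, 1 rose (Patl1, 0.62) and the median was 0.01. Of 8 other RNA-binding proteins, mostly binders of AU-rich elements, 2 rose (Elavl1, 0.32, and the poly(A)-binding protein gene Pabpc1, 0.81) and 1 fell (Tia1, -0.58). At 4 h in the unstranded control, 5 of the 12 decapping and decay genes were at least 2-fold higher, as were 2780 of 13951 genes tested. Either way, 30.7% of all genes were 2-fold different. Among the 5 were the decapping enzyme Dcp2 (14.7 and 105 FPKM) and the exonuclease Xrn1 (10.4 and 73.2). In polyA RNA these were 9.36 and 56.5, and 8.69 and 37.9 FPKM.

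Known targets of the members were also measured. The fit over LPS held 13 of 14 ZFP36 targets and 9 of 12 regnase and roquin targets, but several, such as Csf2 and Lif in the unstranded control, were below 1 FPKM before LPS and entered through the treated libraries, so no count is given. Tnf, on both lists, rose by 4.99 on the log2 scale (limma, adjusted p = 0.000139), the chemokine gene Cxcl1 by 8.30 (adjusted p = 4.36e-05) and Nfkbiz by 5.58 (adjusted p = 0.000176). Tnf was 115 FPKM untreated, 4956 at 45 min and 5628 at 4 h in the unstranded control. With the Wdr82 hairpin, where 21.8% of all genes were called, 1 of 7 tested ZFP36 targets rose (Ier3, mean log2 ratio 1.41, adjusted p = 0.00275) and 1 fell (Plk3, -0.43, adjusted p = 0.0464). Of 8 tested regnase and roquin targets 1 rose (Tnfrsf4, 0.54, adjusted p = 0.0473). Of the deadenylase genes, Pan2 (0.76) and Parn (0.65) rose and Rqcd1 (-0.40) fell with this hairpin, and of the decapping genes Dcps fell (-0.52). In untreated polyA RNA, a single pair without a test, Tnf was 3.94 and 25.7 FPKM and Ier3 10.9 and 25.0 in control and hairpin cells. There, 5.39% of all genes were 2-fold different, and the deadenylase list had no such member. In 4sU RNA the mean log2 ratio of Tnf with the Wdr82 hairpin was -0.37 (above 0 in 1 of 4 pairs, limma, adjusted p = 0.0758), and over the untreated pairs of any hairpin -0.48 (above 0 in 1 of 4, adjusted p = 0.209).

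Genes whose course was most like that of a member were chosen by the mean absolute difference of their log2 ratios to the untreated control over the other 7 libraries of the unstranded set, among 9774 genes. For Zfp36 these were Junb (0.43), Csrnp1 (0.45) and Ppp1r15a (0.48), where the median gene differed by 2.72. For Btg2 they were Maff (0.42), Dusp1 (0.49) and Ppp1r15a (0.54). The member nearest to Zfp36 was Btg2 (0.66). For Zc3h12c they were Birc3 (0.23), Pim1 (0.25) and Slc2a6 (0.26), for Zc3h12a the named gene Tnip1 (0.18) beside the predicted genes Gm13556 and Gm13357, and for Btg1 Il10ra (0.16), Samsn1 (0.25) and H2-Q7 (0.29). Zfp36l1 was nearest to Lima1 (0.21), Pdlim7 (0.25) and Snora68 (0.29), and Zfp36l2 to Lyl1 (0.21), Lfng (0.27) and Lhfpl2 (0.31). Rc3h1 was nearest to Zfand3, Smarce1 and Btbd7 (0.07 to 0.10) and Rc3h2 to Rnf115, AI314180 and 1200011M11Rik (0.07 to 0.09). Rc3h1 and Rc3h2 differed from each other by 0.23. The median gene differed from them by 0.72 and 0.80.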

How the data were processed

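The authors deposited 6 tables with an FPKM per gene and library, with confidence bounds and a status, per the file headers. The genome build mm9 and the tools TopHat 1.3.1, Cufflinks 2.1.1 and Cuffdiff 2.1.1 are named per the submitters' processing notes. How libraries were scaled to each other, which gene annotation was used and what level the bounds have is not given in the sources used here, and depth is unknown. A symbol with several rows was taken from the row with the highest mean FPKM.

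To form log2 ratios within a table, 1 FPKM was added to both values. Genes entered at 1 FPKM or more in either library with status OK. In single pairs (1 library per condition, no test) a call meant at least 2-fold. Where ratios repeat over times or sets, limma 3.58.1 in R 4.3.3 tested their mean against 0 (moderated variance with a trend on mean level, Benjamini-Hochberg over all genes, adjusted p under 0.05). Fits of the same ratios were also run on simulated data with known changes, but without the trend and with residuals shuffled between genes. That simulation therefore does not test the fits as reported here. The fit over 4 untreated hairpin pairs was added after the data were seen.

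The members, gene lists and tests were chosen with earlier results of these data known. Named genes are the 9 members, list genes called by a limma fit or, in single pairs, up to 4 of the most abundant of a list, and the 3 genes most like each member among genes with a mean of at least 5 FPKM. Outside this rule, Dcp2, Xrn1, Tnf and Ier3 at single pairs, and the marker genes, were chosen after their values were seen. Promoter sequences come from RefSeq (GRCm38.p6), in windows of 250 bases before the start, of which the last 100 are printed for Btg1.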

Additional observations from a re-analysis of the deposited data

Results flagged for a closer look

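Several members had hairpin ratios that lay on opposite sides of 0 in every pair of 2 kinds of hairpin comparison. These entries come from a search over all members and all pairings of kinds, and only those that met this rule are listed. The share of all genes that meet the rule was not counted. Whether the members meet it more often than other genes is therefore unknown. Each kind has only 2 pairs of libraries, except the Wdr82 hairpin in 4sU RNA with 8. None of these differences was tested, and the hairpins, controls and library kits differ between the sets. Values are differences between the median log2 ratios of the 2 kinds. The Btg1, Zc3h12a and Zfp36l1 entries each rest on a ratio near 0 that changes side once the median of all genes is subtracted. These ratios were -0.01 for Btg1 in polyA RNA at 4 h (0.10 after subtraction) and -0.02 for Zc3h12a in untreated polyA RNA (0.03). For Zfp36l1 in untreated cells of the Pnuts set the ratio was 0.02 (-0.01).

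Btg1 gave 3 of them. Its median ratio with the Wdr82 hairpin was 0.41 in 4sU RNA and -0.28 in polyA RNA, a difference of 0.69. The polyA median was also below that with the Set1a+Set1b hairpins (difference -0.88) and lower than that of the libraries labelled Pnuts hairpin (difference -1.26). Btg2 was lower in polyA RNA with the Wdr82 hairpin than with the Set1a+Set1b hairpins (difference -1.15). Zfp36l2 was above its control with the Set1a+Set1b hairpins (median 0.44) and below it in the libraries labelled Pnuts hairpin (median -0.61), a difference of 1.05. In polyA RNA with the Wdr82 hairpin, Zfp36l1 differed from the libraries labelled Pnuts hairpin by -1.13. Zc3h12a in polyA RNA differed from the Set1a+Set1b hairpins by -0.47. For Rc3h2 the differences of the polyA pairs were -0.40 from the Set1a+Set1b hairpins and -0.69 from the libraries labelled Pnuts hairpin. After subtraction of the median of all genes, the Rc3h2 ratios in polyA RNA were close to 0 (-0.08 untreated and -0.002 at 4 h).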

How the results depend on the processing

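No called value of a member changed direction under the alternatives run. Of 1347 single-pair values of members under alternatives, 1332 kept their side of the threshold, 11 no longer passed it and 4 newly passed it. Of 297 member values of the limma fits, 273 kept theirs, 22 no longer passed and 2 newly passed. Without the FPKM filter none of the 9 members passed in the fit over 45 min of LPS (main 7), the Wdr82 fit (main 1) or the added fit over untreated hairpin pairs (main 2). At an unadjusted p under 0.05, 8, 2 and 3 did. All genes called were then 10 of 33214 (main 3190), 295 (main 2664) and 0 (main 1087, with 3844 at an unadjusted p under 0.05 without the filter). In the Wdr82 fit, members called were 0 with no trend in the variance (1 at an unadjusted p under 0.05), 2 with all 7 4sU pairs without DRB, and 0 to 1 on leaving out 1 pair. All genes called were 4276 with 7 pairs and 1038 to 1992 on leaving out 1 pair. In the LPS fit, all 7 member calls remained on leaving out 1 set, and all genes called were 1281 to 1813. With the 1 h ratio added they were 1697, and with the hairpin ratios added 5586. Centring on the median changed the 1921 higher and 1269 lower genes to 1364 and 1568, with 7 members called. In the added fit, leaving out 1 set gave 0 to 0 members (3 to 4 at an unadjusted p under 0.05) and 5 to 745 genes. With a 1.5-fold threshold, hairpin calls of members were 3 in Wdr82 4sU RNA (main 0), 5 in polyA RNA (main 1), 2 with the Set1a+Set1b hairpins (main 0) and 6 in the Pnuts set (main 1). With deposited bounds apart, they were 0 in polyA RNA and 0 in the Pnuts set, 12 for LPS in control cells (main 44) and 7 for DRB (main 15). The cause of these shifts was not tested, apart from fewer or more ratios in a fit. The limma fits test ratios formed within a set, and for hairpins also within a time. In the LPS fit with the hairpin ratios added, the ratios of a set were treated as a correlated block. No block was used in the other fits, and the labels give no replicate numbers. The Wdr82 fit with 7 4sU pairs therefore counted ratios of the same set as separate repeats. With 1 mean ratio per set (3 sets), it called 1 member and 1999 genes. Depth and the level of the deposited bounds are unknown, so the part of counting error in a single pair was not measured. The limma fits use the spread between ratios and not these bounds.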
